A study of Bos taurus with 54 samples.

Results

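The mitochondrial ribosomal protein genes were taken as all genes of the count files whose symbol is MRPL or MRPS followed by a number and at most 1 letter. This gave 78 genes of the 32637 listed, of which 49 carried MRPL symbols (large subunit) and 29 MRPS symbols (small subunit). Whole blood of 15 Holstein male calves was drawn at 6AM under thermoneutral conditions (control) and at 6PM after 12 h of heat exposure in climate-controlled rooms (heat stress). Not every calf had both draws. There were 29 RNA samples, and 12 calves had libraries of both times in each kit. No genotype, drug or age was given for the calves, and the red cells of each draw were lysed before the RNA of the remaining pellet was isolated. The RNA was sequenced with 2 kits that read the 3′ ends of polyadenylated transcripts, one of Takara (SMART-Seq v4 3′ DE) and one of Lexogen (QuantSeq 3′), and each kit had 13 control and 13 heat stress libraries. Each kit had 1 further library, of animal 20, whose time the sources give differently, and it entered no test of heat stress unless stated. Since all controls were drawn in the morning and all heat stress samples in the evening, heat and time of day cannot be told apart.

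The mitochondrial ribosome translates the messages that are encoded in the mitochondrial genome itself, which are core subunits of the respiratory chain and the ATP synthase. Its ribosomal RNAs are made inside the organelle, whereas its proteins are encoded in the nucleus, made in the cytosol and imported. Some of these proteins have a counterpart in the bacterial ribosome, and others were added during the evolution of mitochondria. In blood, lymphocytes rely on mitochondrial respiration to a larger extent than neutrophils, which live mainly from glycolysis.

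By their known place in the ribosome, 29 members were large subunit proteins with a bacterial homologue and 22 were large subunit proteins specific to mitochondria. A further 16 were small subunit proteins with a bacterial homologue and 10 were small subunit proteins specific to mitochondria. MRPS18A and MRPS30 have small subunit symbols but sit in the large subunit and were placed there. The remaining gene, MRPS36, carries the symbol but encodes a small subunit of the 2-oxoglutarate dehydrogenase complex. The 78 genes lay on 27 chromosomes of the ARS-UCD2.0 assembly, with 9 on chromosome 11 and 8 on chromosome 19. The closest neighbours were MRPL46 (chromosome 21, positions 19451246 to 19484157) and MRPS11 (chromosome 21, positions 19484233 to 19495139), with 75 bases between them.

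Takara libraries held 5140595 to 20699030 gene counts and Lexogen libraries 4516761 to 58521751. The members took a median of 0.537% of these counts in Takara libraries (range 0.245% to 0.617%, n = 27) and 0.137% in Lexogen libraries (range 0.0841% to 0.254%, n = 27). In each Takara library, 77 of the 78 members had at least 1 count, while the number was 54 to 77 in Lexogen libraries, with 54 in the heat stress library of animal 18. The median member had a median of 434 counts per Takara library and 143 per Lexogen library. The Lexogen heat stress library of animal 15 was the deepest of its kit. The Takara library of animal 20 had the lowest member share of its kit and the highest summed level of neutrophil markers, 113683 CPM (counts scaled to a common library size).

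In Takara libraries, part of the mitochondrial ribosomal protein genes was lower after heat stress. Of the 77 members that passed the filter on low counts, 17 were down-regulated and 0 were up-regulated (edgeR's quasi-likelihood test, Benjamini-Hochberg adjusted p under 0.05 over all 12620 genes tested). Among all genes tested, 10.5% were down-regulated and 18.4% were up-regulated. The median log2 fold change, heat stress minus control, was -0.19 over the members and -0.05 over all genes tested. The log2 fold change was below 0 for 68 of the 77 members, beside 55.0% of all genes tested. At an unadjusted p under 0.05, 27 members were lower and 1 was higher, beside 18.1% and 22.9% of all genes. With the total count of each library as its size, which moved the median of all genes to -0.27, 24 members were down-regulated and 0 up-regulated, beside 17.3% and 10.3% of all genes, and the median of the members was -0.38. The changes were small, since the 17 log2 fold changes lay between -0.54 and -0.25, which corresponds to 0.689 to 0.842 times the control level. In whole blood, a lower share of cells that express a gene and less of its RNA per cell cannot be told apart.

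The call depended on the place of animal 20. With its library counted as heat stress, as its label says, 21 members were down-regulated and 0 up-regulated, beside 13.2% and 20% of all genes. With it counted as control, as the sampling scheme in the methods implies, 0 members passed the threshold, and 0 of all genes tested were called in either direction. At an unadjusted p under 0.05, 19 members were lower. The share of all genes at that threshold is not given here, so the 19 cannot be set against it. With the animal as a block, 13 members were down-regulated (10.2% of all genes) and 1, MRPS15, was up-regulated (14.9% of all genes). RLE size factors gave 13 down-regulated members, beside 9.41% of all genes. With the block added to those factors, 12 were down-regulated and 1 up-regulated (9.19% and 15.4% of all genes), and with the block and the total count as library size 33 and 0 (23.5% and 9.07%).

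**Figure D1:**
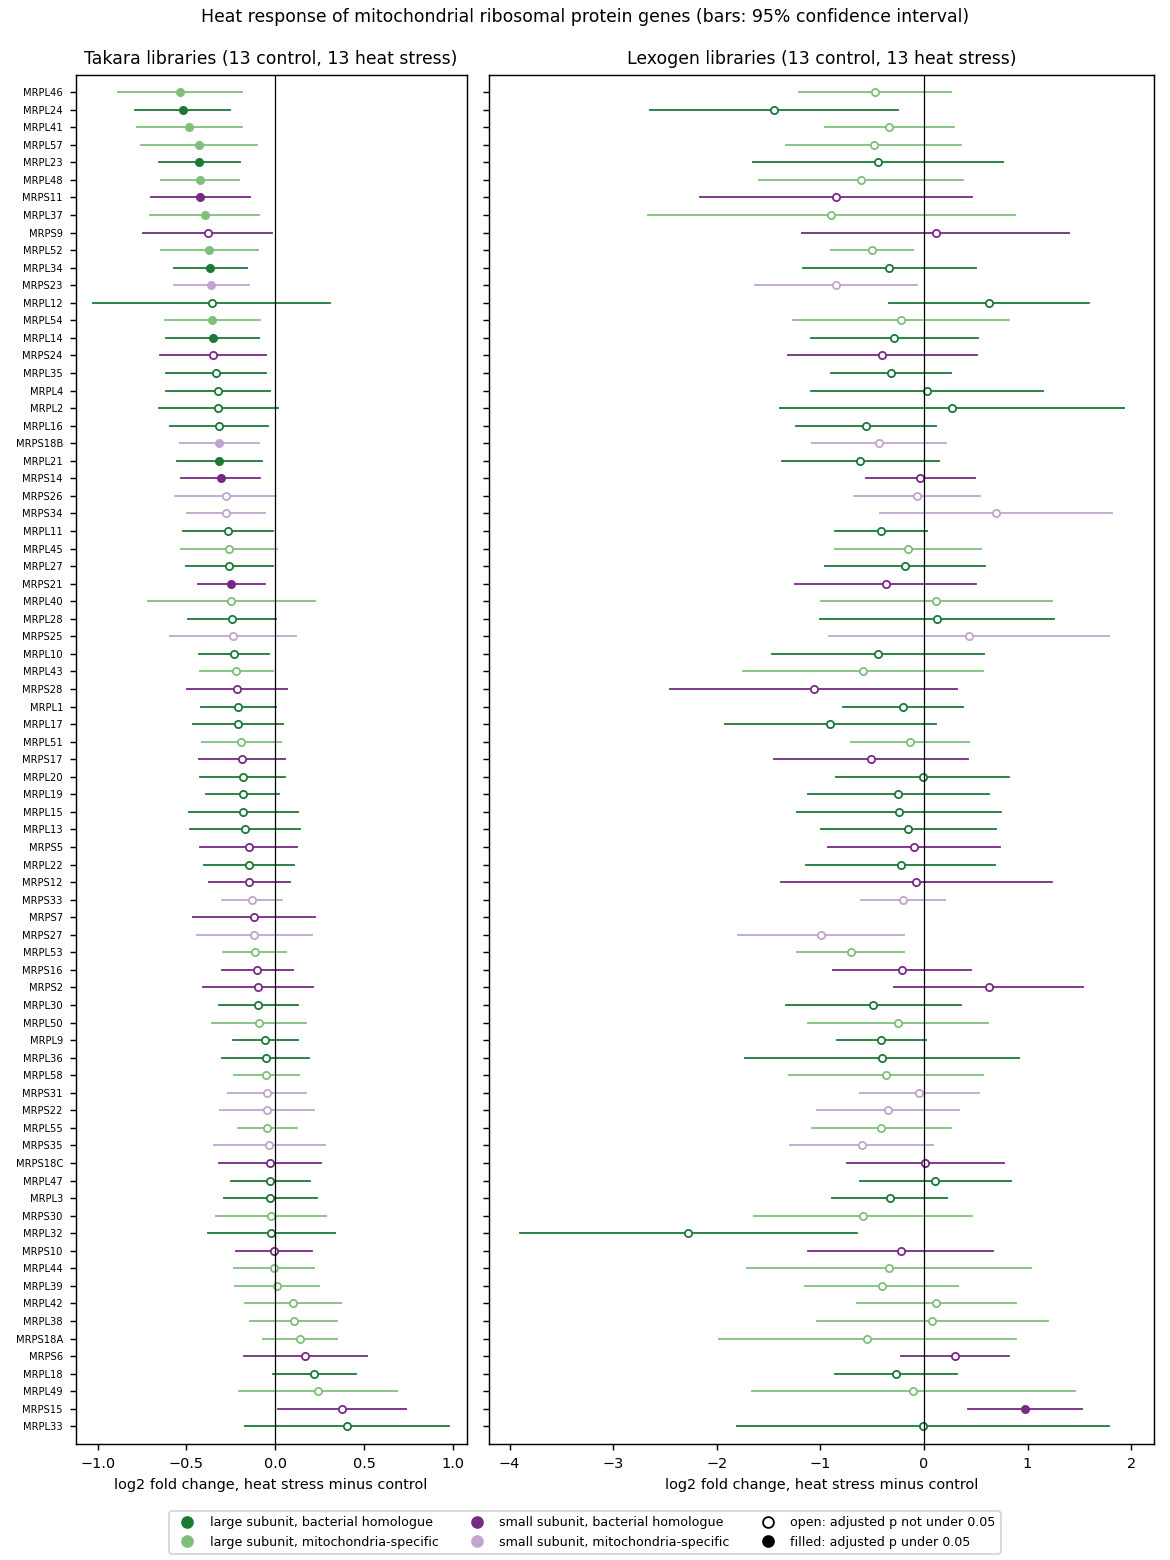
Log2 fold change of heat stress minus control for the 77 tested members, ordered by the Takara value, with 95% confidence intervals and colours for the 4 subunit classes; filled points passed an adjusted p of 0.05. In Takara libraries 17 points are filled, all below 0, and in Lexogen libraries 1 point is filled, MRPS15, above 0, with wider intervals throughout.

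All 4 classes of ribosomal subunits held down-regulated members in Takara libraries. The large subunit proteins specific to mitochondria had 7 of 22 (median log2 fold change -0.15) and those with a bacterial homologue 5 of 29 (median -0.21). Among the small subunit proteins, 3 of 16 with a bacterial homologue (median -0.15) and 2 of 10 specific to mitochondria (median -0.18) were down-regulated. In the order given, the shares were 31.8%, 17.2%, 18.8% and 20%, beside 10.5% of all genes tested. Whether these shares differ between the classes was not tested. The 17 genes were MRPL14, MRPL21, MRPL23, MRPL24, MRPL34, MRPL37, MRPL41, MRPL46, MRPL48, MRPL52, MRPL54, MRPL57, MRPS11, MRPS14, MRPS18B, MRPS21 and MRPS23.

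MRPL24, the homologue of a bacterial protein that binds the large ribosomal RNA early in assembly, was lower after heat stress in 12 of the 12 animals with both Takara libraries. Its level ranged from 24.9 to 34.5 CPM with a median of 29.7 in the 13 control libraries, and from 12.9 to 32.5 CPM with a median of 17.9 in the 13 heat stress libraries. Of the heat stress libraries, 9 lay below every control library and the other 4 within the range of the controls. The log2 fold change was -0.52 (SE 0.13, adjusted p = 0.00434), which corresponds to 0.696 times the control level.

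MRPL46, a large subunit protein specific to mitochondria, had the log2 fold change farthest from 0 of the members, -0.54 (SE 0.17, adjusted p = 0.0193). Control libraries had 44.5 to 99.9 CPM (median 58.5) and heat stress libraries 25.4 to 69.5 CPM (median 44.9). The groups overlapped, with 6 heat stress libraries below all controls, and 8 of 12 animals were lower. The sample numbers of the series fall in 2 runs with different calves. Its level was lower in 6 of 6 animals of run 2 but in 2 of 6 animals of run 1, and its log2 fold change was -0.97 (adjusted p = 0.0365) within run 2 and -0.09 (adjusted p = 0.764) within run 1. The difference between the runs did not pass the test of the interaction of run and heat (adjusted p = 0.106).

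MRPS11, the gene next to MRPL46 on chromosome 21, belongs to the small subunit and has a bacterial homologue near the messenger RNA exit. It had 26.1 to 55.3 CPM (median 38.5) in control libraries and 16.9 to 41.9 CPM (median 25.7) in heat stress libraries. It was lower in 10 of 12 animals, with 7 heat stress libraries below all controls (log2 fold change -0.42, SE 0.14, adjusted p = 0.0209). Its log2 fold change was -0.61 (adjusted p = 0.0300) within run 1 and -0.17 (adjusted p = 0.618) within run 2, and the interaction of run and heat did not pass the test (run 2 minus run 1 0.42, SE 0.27, adjusted p = 0.459).

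Among the other large subunit proteins, MRPL41, which is specific to mitochondria, had 476 to 745 CPM (median 648) in control and 220 to 654 CPM (median 436) in heat stress libraries. It was lower in 10 of 12 animals and 8 heat stress libraries fell below all controls (log2 fold change -0.48, SE 0.14, adjusted p = 0.0131). MRPL23, whose bacterial homologue lies at the exit of the peptide tunnel, had 244 to 371 CPM (median 320) in control and 136 to 291 CPM (median 254) in heat stress libraries. For this gene 11 of 12 animals were lower, and 6 heat stress libraries fell below all controls (log2 fold change -0.43, SE 0.11, adjusted p = 0.00546). The groups of both genes overlapped.

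MRPL48, specific to mitochondria, had 26.6 to 42.8 CPM (median 35.1) in control and 16.4 to 33.02 CPM (median 25.95) in heat stress libraries. In 11 of 12 animals it was lower, and 7 heat stress libraries were below the controls (log2 fold change -0.43, SE 0.11, adjusted p = 0.00459). MRPL37, also specific to mitochondria, had 53.7 to 86.8 CPM (median 63.7) in control and 22.9 to 82.5 CPM (median 47.7) in heat stress libraries. It was lower in 10 of 12 animals and below all controls in 9 heat stress libraries (log2 fold change -0.40, SE 0.15, adjusted p = 0.0461). The call of MRPL37 was lost with the animal as a block (adjusted p = 0.0502), with RLE size factors (0.0533), with no filter on low counts (0.0573) and with DESeq2 (0.0555). The groups overlapped for both.

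MRPL57, specific to mitochondria, had 39.5 to 80.4 CPM (median 59.0) in control and 21.7 to 62.1 CPM (median 49.3) in heat stress libraries, with 9 of 12 animals lower and 5 heat stress libraries below all controls. The log2 fold change was -0.43 (SE 0.16, adjusted p = 0.0438). The end of this gene shares 47 bases with ZDHHC20, and 33.6% of the Takara reads on it lay on the antisense strand. From the sense counts alone the log2 fold change was -0.42 (SE 0.15, adjusted p = 0.0392). The call was lost with RLE size factors (adjusted p = 0.0510), with no filter on low counts (adjusted p = 0.0519) and with DESeq2 (adjusted p = 0.0519).

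**Figure D2:**
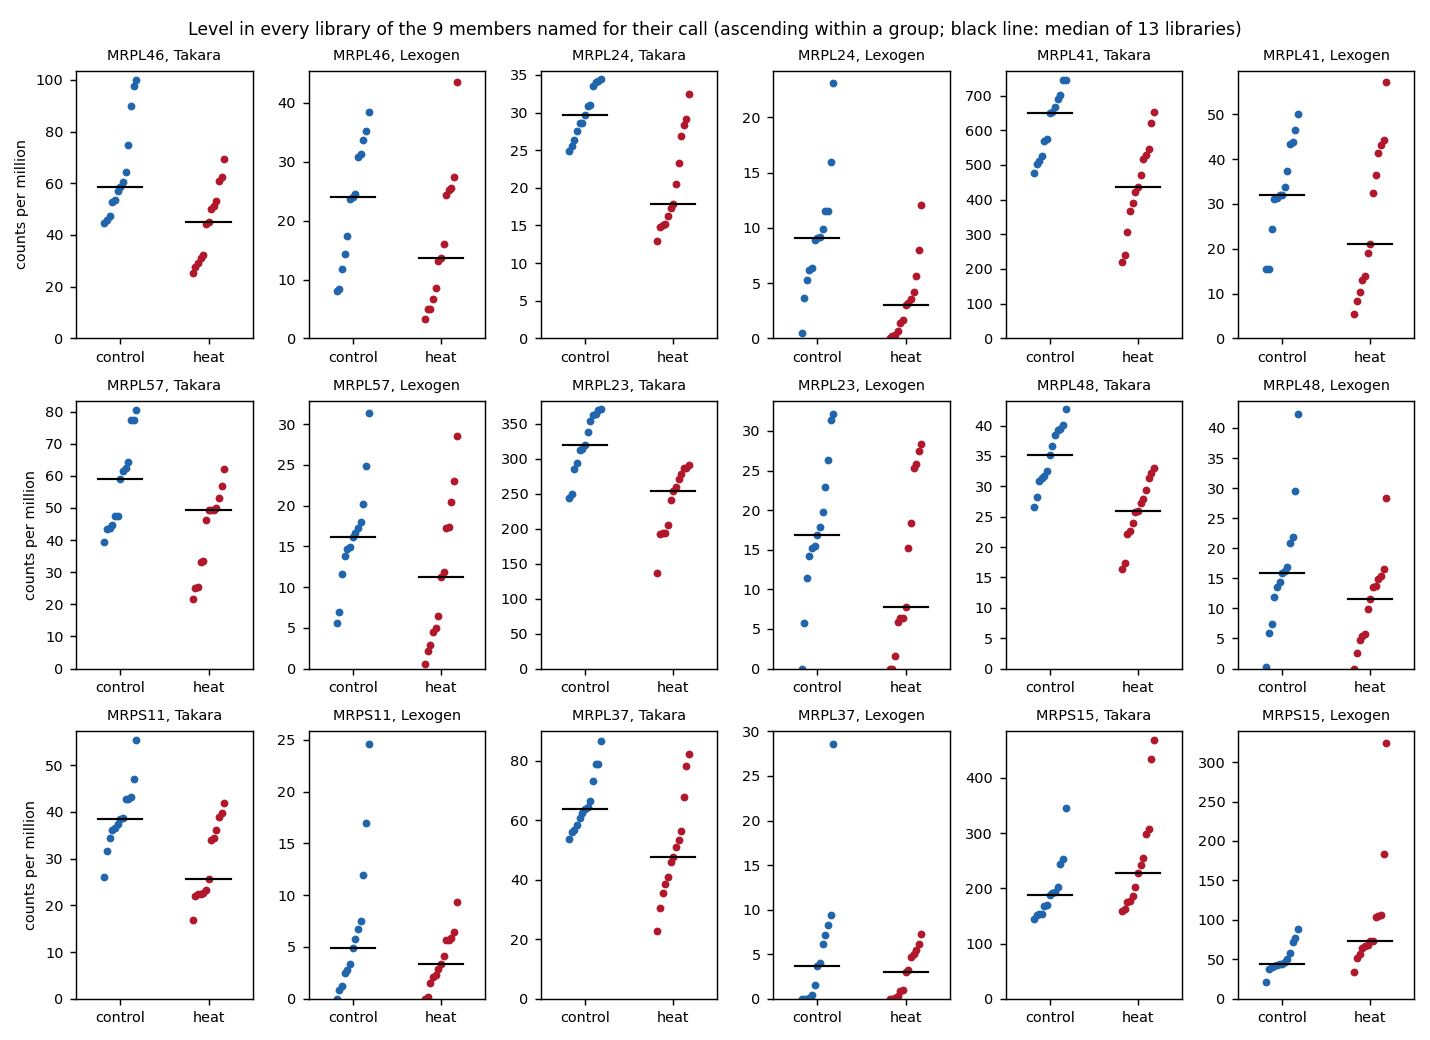
Level in CPM of the 9 members named for passing the test, in each of the 13 control and 13 heat stress libraries of each kit, in ascending order within a group, with the median as a black line. In Takara libraries the heat stress median lies below the control median in all of them but MRPS15, where it is 227 against 187 CPM.

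In Lexogen libraries, 0 of 76 tested members were down-regulated and 1 was up-regulated (edgeR's quasi-likelihood test over 11108 genes). Among all genes tested, 0.459% were down-regulated and 5.09% were up-regulated. The median log2 fold change was -0.30 over the members and -0.08 over all genes, and 61 of 76 members were below 0, beside 55.8% of all genes. At an unadjusted p under 0.05, 6 members were lower and 1 was higher, beside 5.37% and 11.5% of all genes. DESeq2 called 3 lower, MRPL32, MRPL53 and MRPS27, which were named after their values were seen. The share of all genes that DESeq2 called in Lexogen libraries is not given here. The errors were larger than in Takara libraries, with a median SE of a member's log2 fold change of 0.42 against 0.13.

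MRPS15, the homologue of a bacterial protein that binds the small ribosomal RNA at the start of assembly, was the up-regulated member. It had 21.8 to 88.3 CPM (median 44.6) in Lexogen control libraries and 34.1 to 324 CPM (median 73.1) in Lexogen heat stress libraries. The groups overlapped, and 2 of 12 animals were lower. The log2 fold change was 0.98 (SE 0.27, adjusted p = 0.0258), which corresponds to 1.97 times the control level, and it was 0.84 (adjusted p = 0.0608) with the animal as a block, where 0.45% of all genes were up-regulated. The gene also passed the test with the total count as library size (3.93% of all genes up-regulated and 0.468% down-regulated), with RLE size factors (5.52% up-regulated) and from the sense counts (5.2% up-regulated). Within run 1 it was 1.26 (adjusted p = 0.0741) and within run 2 0.46 (adjusted p = 0.641). In Takara libraries MRPS15 had 144 to 345 CPM (median 187) in control and 158 to 469 CPM (median 227) in heat stress libraries, a log2 fold change of 0.38 (SE 0.18, adjusted p = 0.106). With the animal as a block it was 0.35 in Takara libraries (adjusted p = 0.0386), while the total count as library size gave 0.11 (adjusted p = 0.602).

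The kits sequenced RNA of the same calves, so their comparisons share samples and are given side by side. For the 17 members down-regulated in Takara libraries, the Lexogen log2 fold changes had a median of -0.47 and lay between -1.45 (MRPL24, SE 0.59, adjusted p = 0.171) and -0.03 (MRPS14, SE 0.26, adjusted p = 0.974). In Lexogen libraries MRPL24 had 0.467 to 23.1 CPM (median 9.07) in control and 0 to 12.1 CPM (median 3.06) in heat stress libraries, and 11 of 12 animals were lower. The response to heat stress differed between the kits for 0 of 77 members by the interaction term of kit and heat (24 RNA samples with both kits, 0% of 13354 genes called). At an unadjusted p under 0.05 it differed for 4 members, beside 3.94% of all genes. The smallest p of a member belonged to MRPS15, with a Takara minus Lexogen difference of -0.57 (SE 0.18, unadjusted p = 0.00416).

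The level summed over all members was lower after heat stress in 9 of 12 animals in Takara libraries and in 7 of 12 in Lexogen libraries. Takara control libraries had 4327 to 5394 CPM (median 4944) and heat stress libraries 3272 to 5372 CPM (median 4070). The control libraries were close together and the heat stress libraries spread over a wider range that reached the controls. The change per animal ran from -33.9% to 19.2% with a median of -15.7%, and animals 12, 14 and 32 were higher after heat stress. In Lexogen libraries the sum was 1258 to 2282 CPM (median 1464) in control and 899 to 1737 CPM (median 1368) in heat stress libraries, and the change per animal ran from -40.7% to 23.1% (median -12.1%). The Lexogen control library with the highest sum was that of animal 19.

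**Figure D3:**
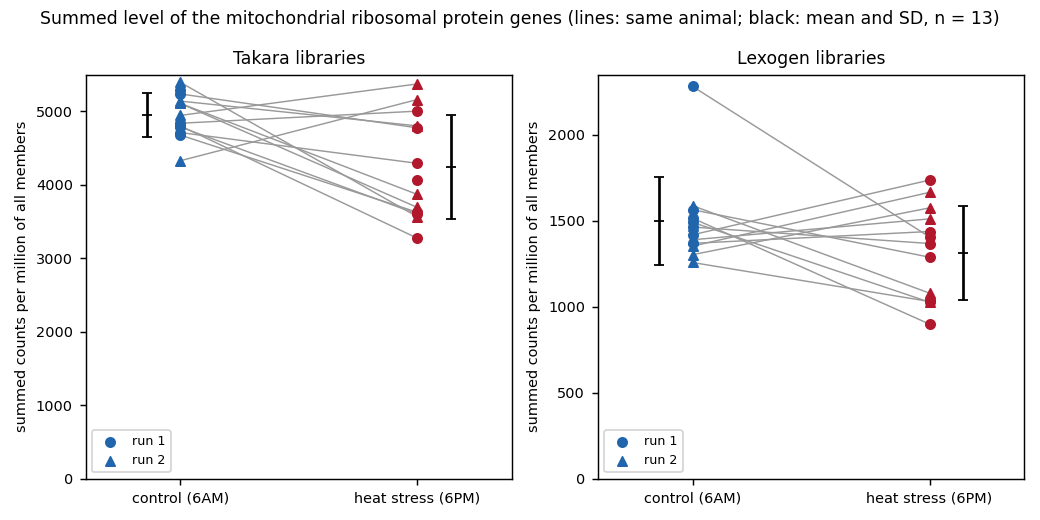
Summed CPM of all members in each library at control (6AM) and heat stress (6PM), with grey lines joining libraries of the same animal, circles for run 1, triangles for run 2, and the mean and SD of 13 libraries in black. Lines fall for 9 of 12 animals in Takara libraries and for 7 of 12 in Lexogen libraries, and the heat stress points spread more widely than the control points in Takara libraries.

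The runs of sample numbers gave different counts of calls. Within run 1 (7 control and 7 heat stress Takara libraries), 12 members were down-regulated and 0 up-regulated, beside 5.87% and 14.7% of all genes, with a median log2 fold change of -0.29 beside -0.05 for all genes. Within run 2 (6 and 6), 1 member, MRPL46, was down-regulated and 0 up-regulated, beside 2.55% and 4.8% of all genes, with a median of -0.05 beside 0.01. The interaction of run and heat was called for 0 of 77 members in Takara libraries, where the lowest adjusted p was 0.106 and 2.27% of all genes were called. At an unadjusted p under 0.05 it was met by 10 members, beside 16.2% of all genes. In Lexogen libraries 0 of 77 members were called (0.0222% of all genes) and 6 had an unadjusted p under 0.05, beside 7.86% of all genes. MRPL46 had the smallest p of the members in both kits, with opposite signs. Its log2 fold change in run 2 minus that in run 1 was -0.90 in Takara libraries (SE 0.29, adjusted p = 0.106) and 2.21 in Lexogen libraries (SE 0.64, adjusted p = 0.275).

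Several members with special roles did not pass the test in Takara libraries. MRPL12, which forms the flexible stalk that recruits translation factors, had a log2 fold change of -0.36 (SE 0.33, adjusted p = 0.420), with 9.34 to 46.6 CPM (median 16.4) in control and 5.70 to 39.6 CPM (median 13.2) in heat stress libraries. MRPL11, at the base of that stalk, had -0.27 (SE 0.12, adjusted p = 0.107), with medians of 51.9 and 37.5 CPM. The groups overlapped for both. MRPS12, at the decoding centre of the small subunit, had -0.15 (SE 0.11, adjusted p = 0.328), with medians of 77.1 and 66.7 CPM. MRPL58, a peptidyl-tRNA hydrolase that releases stalled peptides, had -0.05 (SE 0.09, adjusted p = 0.698), with medians of 69.6 and 68.1 CPM.

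The 3 MRPS18 genes encode homologues of a single bacterial protein, of which MRPS18A sits in the large subunit and MRPS18B and MRPS18C in the small subunit. MRPS18C takes the place of the bacterial protein, and the other two were counted as specific to mitochondria. In Takara libraries MRPS18B was down-regulated (log2 fold change -0.32, SE 0.11, adjusted p = 0.0297), from a median of 45.9 CPM in control (36.5 to 67.7) to 36.1 CPM in heat stress libraries (25.7 to 52.8). It was lower in 11 of 12 animals, and 7 heat stress libraries were below all controls. MRPS18C had -0.03 (SE 0.14, adjusted p = 0.894) and MRPS18A 0.14 (SE 0.10, adjusted p = 0.309). MRPS18A was 1 of 9 members above 0, and its value was -0.08 with the total count as library size.

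In Takara libraries the highest log2 fold changes that did not pass the test, seen after the fit, were those of MRPL33 (0.40, SE 0.28, adjusted p = 0.283), MRPS15, and MRPL49 (0.24, SE 0.22, adjusted p = 0.421). MRPL49 shares part of its length with SYVN1, and its unstranded count was 0.39 times its sense count in Takara libraries. From the sense counts its log2 fold change was 0.06 (SE 0.14, adjusted p = 0.764), and with the total count as library size -0.03. In Lexogen libraries the lowest was that of MRPL32 (-2.27, SE 0.80, adjusted p = 0.0970), with 1.69 to 37.6 CPM (median 6.61) in control and 0 to 7.63 CPM (median 0.402) in heat stress libraries. For this gene the Takara log2 fold change was -0.02 (SE 0.17, adjusted p = 0.935).

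Of 5 mitoribosomal subunits under other symbols, 2 were down-regulated in Takara libraries, GADD45GIP1 (log2 fold change -0.54, SE 0.17, adjusted p = 0.0198) and AURKAIP1 (-0.33, SE 0.12, adjusted p = 0.0449), and 0 were up-regulated (median -0.32). This is 40% down-regulated, beside 10.5% of all genes. DAP3, a GTP-binding small subunit protein, had -0.22 (SE 0.12, adjusted p = 0.161), from a median of 25.2 to 22.9 CPM. PTCD3, a pentatricopeptide repeat protein of the small subunit, had -0.32 (SE 0.13, adjusted p = 0.0666), from a median of 25.4 to 22.1 CPM. In Lexogen libraries 0 of the 5 were called in either direction by edgeR, and the median was -0.82. There 1 had an unadjusted p under 0.05, beside 1877 of 11108 genes tested.

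Among the 12 tested mitochondrial translation factors, 4 (33.3%) were down-regulated in Takara libraries and 1 (8.33%) was up-regulated, beside 10.5% and 18.4% of all genes. The median log2 fold change of these factors was -0.22. The down-regulated genes were GUF1 (-0.65), the initiation factors MTIF2 (-0.58) and MTIF3 (-0.44) and the elongation factor TUFM (-0.37), and the release factor MTRF1 was up-regulated (0.55). The list of mitochondrial aminoacyl-tRNA synthetases, which charge the transfer RNAs, also held QRSL1, GATB and GATC, subunits of a transfer RNA amidotransferase. Of its 22 genes, 2 were down-regulated, VARS2 (-0.66) and QRSL1 (-0.34), and 0 were up-regulated (median -0.21). This is 9.09% down-regulated, near the 10.5% of all genes. Of 25 genes for mitoribosome assembly and modification of its RNA, 5 were down-regulated (MTG1, MRM3, RBFA, METTL17 and TRUB2) and 1, NGRN, was up-regulated at 0.62 (median -0.27). These are 20% and 4%, beside 10.5% and 18.4% of all genes. The transcription and messenger RNA handling genes had 2 of 18 down-regulated, LRPPRC (-0.36) and HSD17B10 (-0.41), and 0 up-regulated (median -0.18), which is 11.1% down-regulated and again near the share of all genes.

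Among the 9 tested regulators of mitochondrial biogenesis, 3 transcription factors were up-regulated in Takara libraries and 0 were down-regulated. This is 33.3% up-regulated, beside 18.4% of all genes. The 3 were NRF1 (log2 fold change 0.42, SE 0.12, adjusted p = 0.00903), GABPA (0.50, SE 0.15, adjusted p = 0.0130) and ESRRA (0.75, SE 0.22, adjusted p = 0.0120). NRF1 and GABPA are known to act at the promoters of many nuclear genes for mitochondrial proteins. The mean level rose from 12.3 to 16.3 CPM for NRF1 and from 20.2 to 28.2 CPM for GABPA. With the total count as library size none of the up-regulated genes of these lists passed the test: NRF1 had 0.15 (adjusted p = 0.314), GABPA 0.20 (adjusted p = 0.218), ESRRA 0.42 (adjusted p = 0.0761), MTRF1 0.23 (adjusted p = 0.300) and NGRN 0.30 (adjusted p = 0.0649). That scaling called 10.3% of all genes up-regulated. With RLE size factors all of these genes kept their call (adjusted p from 0.00467 for NGRN to 0.0392 for MTRF1), beside 19.1% of all genes. The fit blocked by animal kept NRF1, GABPA, ESRRA and NGRN and lost MTRF1 (adjusted p = 0.107), beside 14.9% of all genes. Values of the down-regulated genes of these lists under other settings are not given here. In Lexogen libraries 0 genes of these 5 lists were called by edgeR. At an unadjusted p under 0.05 were 2 of 11 translation factors, 2 of 24 assembly genes and 0 of 9 regulators. The synthetase list had 0 of 20 and the transcription genes had 0 of 17. Among all genes, 5.37% were lower and 11.5% were higher at that threshold.

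The proteins of the cytosolic ribosome and the nuclear subunits of the respiratory chain gave a comparison for the size of the change. Of 81 cytosolic ribosomal protein genes tested in Takara libraries, 67 were down-regulated and 1 was up-regulated, with a median log2 fold change of -0.43. Of 76 nuclear respiratory chain subunits, 8 were down-regulated and 3 were up-regulated, with a median of -0.08. These are 10.5% and 3.95%, beside 10.5% and 18.4% of all genes. The members, with 17 of 77 and a median of -0.19, lay between these lists, and no test of the differences was made. In Lexogen libraries 0 genes of either list were called by edgeR. There 34 of 81 cytosolic ribosomal protein genes and 6 of 76 respiratory chain subunits had an unadjusted p under 0.05 in either direction. Among all genes tested in Lexogen libraries, 1877 of 11108 did, 5.37% lower and 11.5% higher.

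Markers of some blood cell types also differed between control and heat stress libraries, some higher and others lower. Of 9 tested neutrophil markers, 8 were up-regulated in Takara libraries (median log2 fold change 1.80), with a summed level of 4734 to 21126 CPM in control and 4507 to 108608 CPM in heat stress libraries. Of 10 T cell markers, 6 were down-regulated (median -0.47), with sums of 1298 to 2443 and 757 to 1967 CPM. B cell markers had 1 of 7 down-regulated (493 to 898 and 200 to 881 CPM) and monocyte markers 3 of 7 up-regulated (143 to 746 and 341 to 1128 CPM). Among all genes tested in Takara libraries, 10.5% were down-regulated and 18.4% up-regulated. The B cell share, 14.3%, was near that of all genes. Platelet markers had 0 of 4 and erythroid markers 0 of 2 called by edgeR, with 0 at an unadjusted p under 0.05. In Lexogen libraries 5 of 8 neutrophil markers were up-regulated, with sums of 1400 to 7426 CPM in control and 1904 to 33406 CPM in heat stress libraries, and 0 markers of the other types were called. At an unadjusted p under 0.05, those were 1 T cell, 0 B cell, 3 monocyte, 0 platelet and 1 erythroid marker. Among all genes tested in Lexogen libraries, 0.459% were called lower and 5.09% higher. At the unadjusted threshold these shares were 5.37% and 11.5%.

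The Takara heat stress library with the highest neutrophil sum, that of animal 40, had a member sum of 3626 CPM, and that of animal 15, the next, had 3601 CPM. The library with the lowest neutrophil sum, that of animal 3, had a member sum of 4800 CPM, and that of animal 41, the next, had 4774 CPM. Whether the marker levels changed through the share of cells or through RNA per cell was not tested. Their part in the lower level of the members was not tested either.

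**Figure D4:**
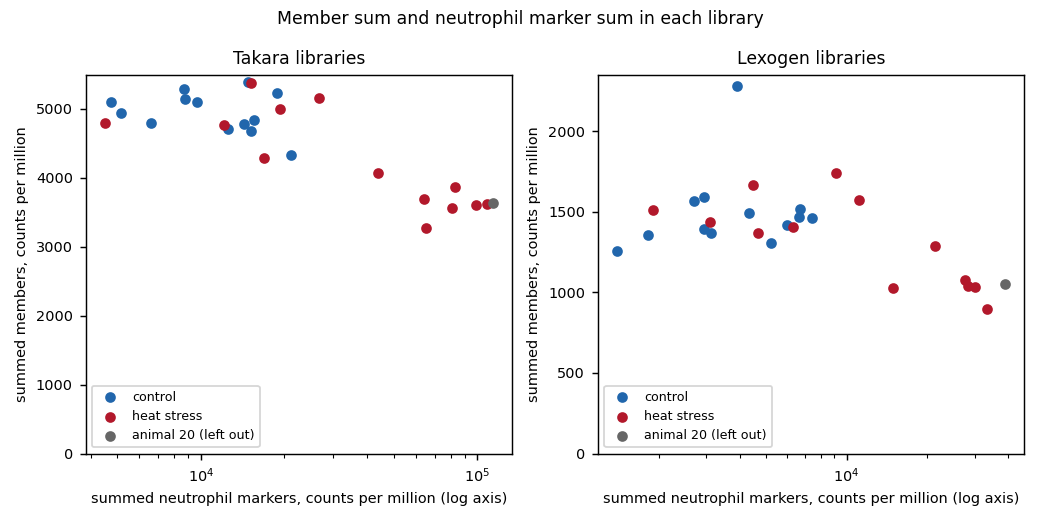
Summed CPM of all members against the summed CPM of the neutrophil markers (log axis) in each library, in blue for control, red for heat stress and grey for animal 20. In Takara libraries the red points reach from 4507 to 108608 CPM of neutrophil markers, and the 2 points farthest to the right among them have member sums of 3601 and 3626 CPM.

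Between the kits, the members were counted at a higher level in Takara libraries. For the 25 RNA samples with a library of each kit, the share of gene counts on the members was higher in the Takara library in 25 of 25, by a mean of 0.335 percentage points ± 0.103 (SD, n = 25), and the Takara share was 2.15 to 4.58 times the Lexogen share. Of 77 tested members, 62 were higher in Takara and 4 were higher in Lexogen libraries (edgeR with the RNA sample as a block), beside 40.5% and 31.8% of all genes tested. The median log2 difference, Takara minus Lexogen, was 1.21 over the members and 0.22 over all genes. For comparison, 17 of 81 cytosolic ribosomal protein genes were higher in Takara and 51 in Lexogen libraries (median -0.65), while the respiratory chain subunits had 60 and 8 of 76 (median 1.26).

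The members farthest towards Takara were MRPS7, MRPL37, MRPS12, MRPL23 and MRPL41. MRPL41 had 166 to 832 CPM (median 599) in Takara and 4.73 to 64.7 CPM (median 31.8) in Lexogen libraries, without scaling between libraries. The kits did not overlap for this gene, and its log2 difference was 3.76 (SE 0.16). MRPL23 had 102 to 431 CPM (median 314.5) in Takara and 0 to 33.1 CPM (median 15.8) in Lexogen libraries (log2 difference 4.11, SE 0.32). MRPS12 had 35.4 to 109 CPM (median 78.4) and 0 to 10.8 CPM (median 2.93), a log2 difference of 4.26 (SE 0.33). The kits did not overlap for these genes either. MRPL37 had 17.3 to 102 CPM (median 65.2) in Takara and 0 to 31.9 CPM (median 1.57) in Lexogen libraries (log2 difference 4.46, SE 0.50), with an overlap of the ranges.

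MRPS7, the homologue of a bacterial protein that starts the assembly of the head of the small subunit, had a log2 difference of 4.69 (SE 0.49) from the unstranded counts and of 2.63 from the sense counts. This gene (chromosome 19, positions 56223094 to 56226334) shares 96 bases with MIF4GD. The unstranded count of MRPS7 was 0.54 times its sense count in Takara libraries and 0.28 times in Lexogen libraries, and it did not pass the filter on low counts in the Lexogen comparison of times. From the sense counts its heat response had a log2 fold change of -0.20 (SE 0.13, adjusted p = 0.247) in Takara and -0.51 (SE 0.53, adjusted p = 0.697) in Lexogen libraries.

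Towards Lexogen, MRPL3 had the largest difference, with 8.06 to 29.9 CPM (median 23.4) in Takara and 7.14 to 70.1 CPM (median 40.5) in Lexogen libraries (log2 difference -1.10, SE 0.14). MRPL35 (-0.62, SE 0.15), MRPS27 (-0.61, SE 0.26, adjusted p = 0.0335) and MRPS35 (-0.45, SE 0.19, adjusted p = 0.0355) were also higher in Lexogen libraries, and MRPL13, the next, did not pass the test (-0.37, SE 0.28, adjusted p = 0.236). The ranges of the kits overlapped for all of them.

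**Figure D5:**
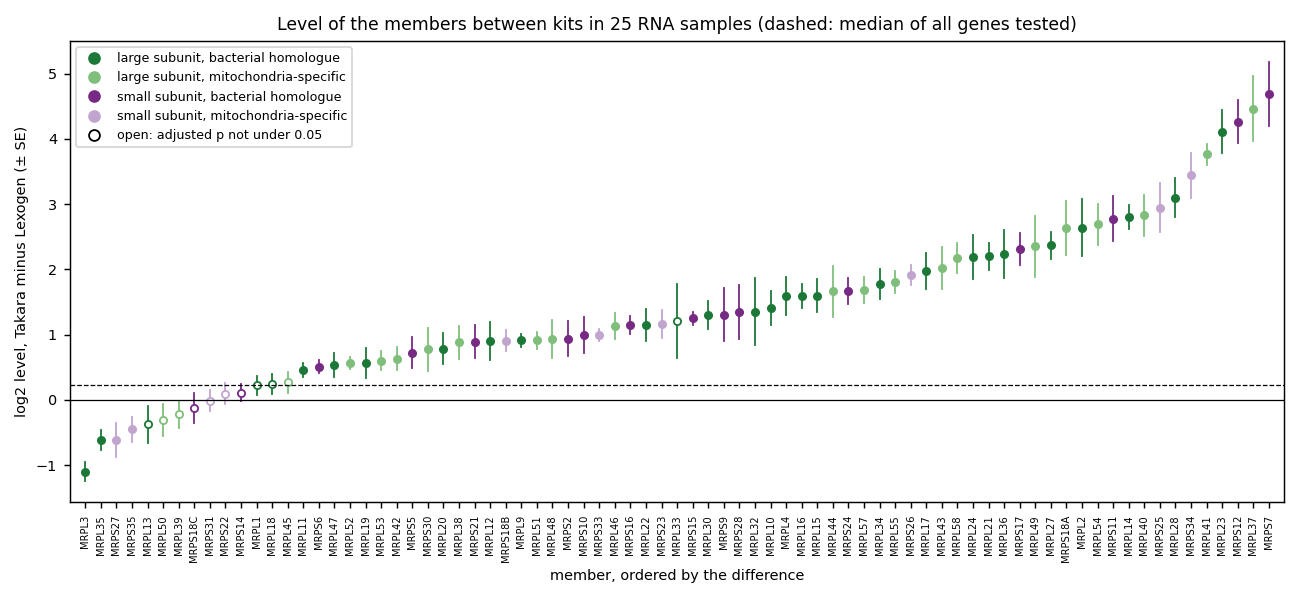
Log2 difference in level, Takara minus Lexogen, with its SE for the 77 tested members in 25 RNA samples, coloured by subunit class, with open points where the adjusted p was not under 0.05 and a dashed line at the median of all genes, 0.22. The points run from -1.10 (MRPL3) to 4.69 (MRPS7), and most lie above the dashed line.

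MRPS36 (chromosome 20, positions 10467519 to 10475679) had 0 unstranded counts in all 54 libraries but was counted on the sense strand. Its sense counts summed to 5239 in Takara and 8180 in Lexogen libraries. In Takara libraries the sense counts were 64 to 321 (median 236) in control and 95 to 342 (median 155) in heat stress libraries, with overlapping groups. Their log2 fold change was 0.03 (SE 0.15, adjusted p = 0.899) in Takara and -0.25 (SE 0.38, adjusted p = 0.810) in Lexogen libraries. The 0 of this gene therefore does not show that it was not expressed, and what removed its unstranded counts was not tested.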

How the data were processed

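Whole blood RNA of 15 calves was sequenced in 54 libraries, 27 per kit. For the deposited counts, the authors used Trimmomatic 0.39 on the forward reads and STAR 2.7.10b with the ARS-UCD2.0 assembly, and gave raw counts per gene (unstranded, sense and antisense), without normalization. The column the authors analysed was not given in the sources used here. The unstranded counts were used, with sense counts as an alternative. Reads shared by overlapping genes are dropped by this counting.

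Conditions were taken from the sample labels. Genes were kept with filterByExpr, scaled with TMM and tested with edgeR 4.0.16 (quasi-likelihood, Benjamini-Hochberg over all genes tested, threshold 0.05), with time alone as in the study's methods. CPM are counts scaled to a common library size with the TMM factors. Kits were compared with the RNA sample as a block, and so was the interaction of kit and heat. The interaction of run and heat was fitted with run and time as terms, without a block for the animal. DESeq2 1.42.0 was an alternative. R 4.3.3 was used, and the steps were tested on simulated data.

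Libraries of an animal pair the times. Centred gene levels of the same animal correlated above 0.1 between times in 11 of 12 animals in Takara libraries and 2 of 12 in Lexogen libraries. Nothing in the labels says that calves shared a batch, and reads carry no molecular identifiers.

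The members and all lists were chosen with earlier results of these data known. For mitochondrial translation, the lists held subunit classes, other mitoribosomal subunits, translation factors, aminoacyl-tRNA synthetases with amidotransferase subunits, and assembly genes. Further lists held transcription and messenger RNA handling genes, biogenesis regulators, cytosolic ribosomal proteins, respiratory chain subunits and blood cell markers. Named with values were the up to 8 called members with the largest change in each direction and kit, 10 genes of special roles, and the 5 members with the largest kit difference in each direction. Other members were named after their values were seen. NOA1 and FPR1 were not used here. All 78 symbols matched the RefSeq gene table of ARS-UCD2.0, from which positions were taken. Sequences were not used here.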

Additional observations from a re-analysis of the deposited data

Results flagged for a closer look

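MRPS36 was picked out because it had 0 unstranded counts in every library while the sense column, which the main comparisons did not use, held 5239 counts over the Takara libraries and 8180 over the Lexogen libraries. No gene of the RefSeq table overlaps it, and the antisense column held 0.814% and 0.450% of its stranded counts. In the comparison of the kits on sense counts, its log2 difference, Takara minus Lexogen, was -1.22.

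MRPL36 was picked out because its Lexogen level moved in opposite directions in the 2 runs of sample numbers for all 12 animals with both times, after its values were seen. It was lower after heat stress in 7 of 7 animals of run 1, by 1.72 to 13.4 CPM, and higher in 5 of 5 animals of run 2, by 3.60 to 21.4 CPM. The interaction of run and heat was 3.81 on the log2 scale (SE 1.20, unadjusted p = 0.00335) and did not pass after adjustment over all genes (edgeR, adjusted p = 0.336). In Takara libraries it was lower in 3 of 6 animals of run 1 and 2 of 6 of run 2 (interaction 0.28, SE 0.24, adjusted p = 0.620).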

How the results depend on the processing

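In Takara libraries the 17 down-regulated members kept their direction under every alternative run, but fewer of them stayed called under several. Their number was 10 with no filter on low counts, 0 with animal 20 as thermoneutral control and 1 within run 2 (2.55% of all genes lower). DESeq2 kept 13 and lost MRPL21, MRPL37, MRPL57 and MRPS21. The shares of all genes called with no filter and with DESeq2 are not given here. With the animal as replicate block, which pairs the times, 13 were down-regulated, 11 of them among the 17, and 1 was up-regulated. Added after seeing the data, the block together with the total count as library size gave 33 down-regulated members, where 23.5% of all genes were called lower, and the block with RLE size factors 12 (9.19% of all genes), with 1 up-regulated. In Lexogen libraries the up-regulated member was lost (0 called) under the replicate block with each of the 3 scalings, with animal 20 as control, with run as a term and within either run. The down-regulated Lexogen members were 1 with no filter and 3 with DESeq2, and leaving out heat stress animal 15, or, also chosen after seeing the data, heat stress animal 18 or control animal 19, gave 0 to 0 down-regulated and 1 to 1 up-regulated. Of the 4 members higher in Lexogen libraries, RLE size factors left 1 and no filter left 2. The cause was not tested in any of these.

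Of 522 recomputed log2 fold changes of 36 named values, 449 kept direction and side of the threshold, 38 lost the call, 6 gained it and 29 changed sign, all of the last uncalled. Only a called value can lose its call, and the 38 were among 133 recomputed values of the 10 called named values. In Takara libraries within run 2, MRPS12 was 0.077, MRPL58 0.15, MRPS18C 0.066 and DAP3 0.038. MRPL58 was 0.011 with RLE and the block, MRPS18C was 0.046 (sense counts), and MRPS18A was -0.083 with the total count and -0.090 with the block added. In Lexogen libraries within run 2, MRPL46 was 0.73, MRPL41 0.27, MRPL57 0.072, MRPL23 0.96, MRPL48 0.14, MRPL37 0.57, MRPS12 0.89, MRPL58 0.31, DAP3 0.51 and PTCD3 0.52. With the block MRPL37 was 0.20 (0.16 with total count, 0.21 with RLE) and MRPS18C -0.15 (-0.18 and -0.15). MRPS18C was also -0.034 with the total count, -0.0085 with no filter, -0.047 with animal 20 as heat stress and -0.089 within run 1. Leaving out 1 library at a time moved MRPS12 between -0.20 (without heat stress animal 15) and 0.14 (without control animal 19).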
